A study of Danio rerio with 6 samples.

Results

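The genes described here encode the cadherins, catenins, claudins and their partners that join neighbouring cells in epithelia and in the neural plate. They were chosen by symbol: records of the deposited table were given zebrafish symbols through their gene identifiers, and symbols that begin with cdh, pcdh or fat and a number, celsr, dchs, ctnna, ctnnb, ctnnd, cldn, tjp and a number, or epcam were kept, with the record of highest mean per symbol. That gave 63 genes of 13274 measured. They are 6 cdh cadherins, 14 protocadherins, 7 celsr, dchs and fat genes, 9 ctnn genes, 21 claudins, 5 tjp genes and epcam, while the RefSeq gene table holds 166 zebrafish symbols that fit the same rule. The deposited table lists transcripts that reached a mean of at least 101 in some group, so junction genes that stayed low in every group do not appear among the 63.

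Zebrafish embryos were treated with the compound SB505124, which blocks the kinases ALK4, ALK5 and ALK7, the type I receptors for Nodal, activin and TGF-beta. Treatment began at sphere stage or at 30% epiboly, and whole embryos were harvested at 3 stages (shield, tailbud and 7-somite). The 6 groups that result are called sphere-treated and epiboly-treated below. All 6 groups received the inhibitor and untreated embryos were not analysed here, so an onset comparison sets an earlier against a later start of treatment. A sample pooled 30 to 60 embryos, and neither strain nor dose is given in the sources used.

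Classical cadherins such as E-cadherin (cdh1) and N-cadherin (cdh2) bind cadherins of the next cell, and inside the cell they hold beta-catenin and p120-catenin, with alpha-catenin as the link to actin. In fish gastrulae E-cadherin is needed for the spreading of the blastoderm in epiboly, and N-cadherin holds the neural plate together as it folds into the neural keel and tube. Claudins form the strands of tight junctions, the tjp (ZO) proteins are the scaffold below them, protocadherins sort cells without the catenins that classical cadherins use, and the celsr, fat and dchs giants carry planar polarity and tissue growth signals.

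Values are upper-quartile normalized (UQN) group means ± the standard error (SE) that the authors deposited. The pattern of these errors fits 3 values behind each mean, and 3 were assumed, although no label gives a number. A difference was called when its limma-moderated p, adjusted over all 13274 genes, was below 0.05, and "higher", "lower", "rose" and "fell" refer to such calls. The group means sum to between 15311014 and 21048013 UQN, and the median relative SE of junction genes at 100 UQN or more ran from 2.57% in epiboly-treated to 6.33% in sphere-treated shield embryos. The number of genes below 50 UQN was 14 and 10 in the epiboly- and sphere-treated shield groups and between 5 and 8 in the other groups. UQN values are not corrected for transcript length, so levels are compared between groups and not between genes.

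**Figure D1:**
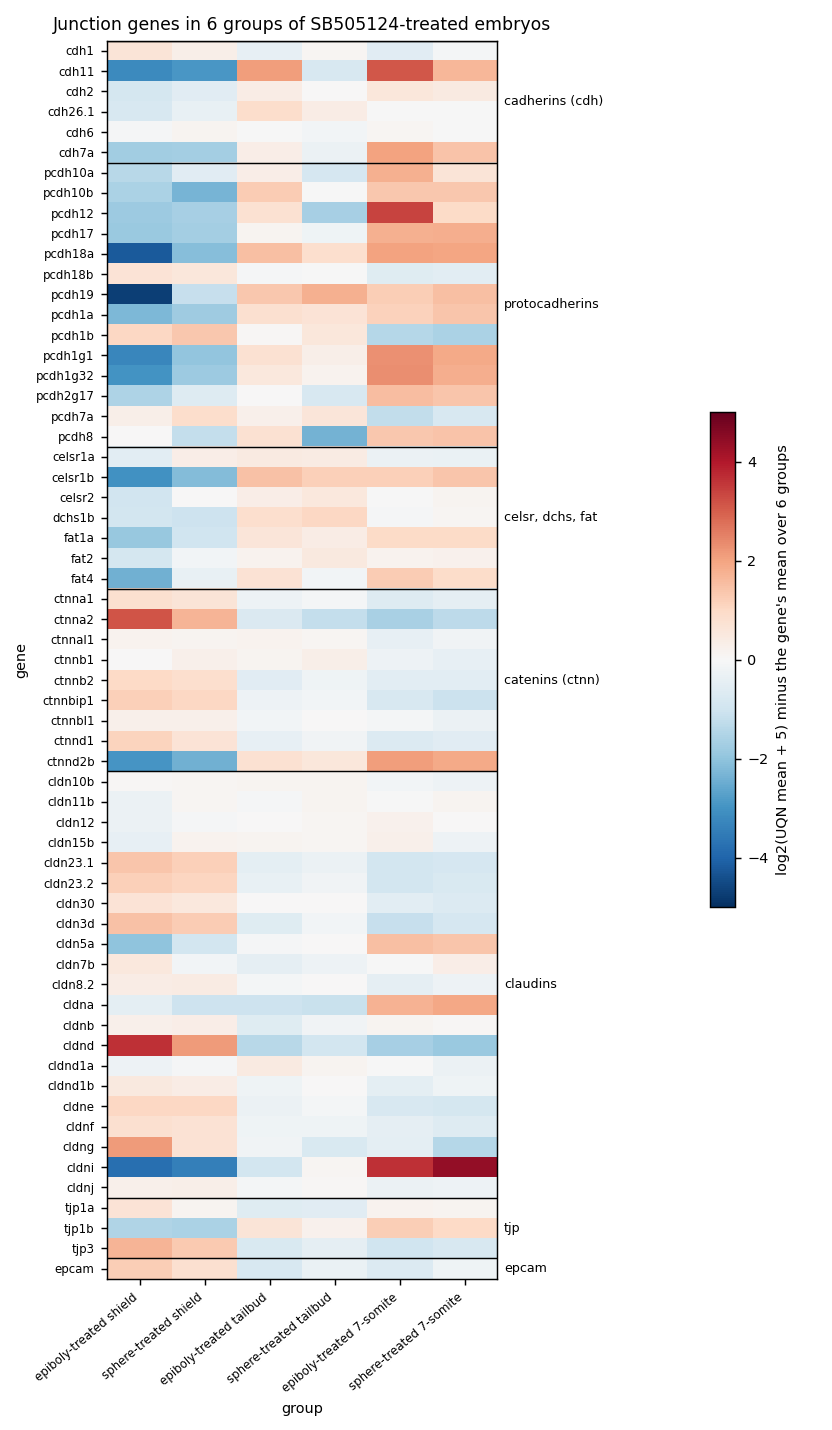
Level of junction genes (rows, by role) in the 6 groups (columns), as log2(UQN mean + 5) minus the gene's mean over the 6 groups; red is above and blue below that mean. pcdh19, pcdh18a and cldni are blue in both shield groups and red at 7-somite, ctnna2 and cldnd show the reverse, and pcdh12 and cdh11 are redder in epiboly-treated than in sphere-treated 7-somite embryos.

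At shield the earlier start of inhibition went with higher levels of celsr, fat and protocadherin genes, while catenins and claudins were called in both directions. In sphere-treated shield embryos 20 of the 63 genes were higher than in epiboly-treated ones, where 20.5% of all genes were, and 12 were lower, where 19.9% of all genes were. At tailbud 1 was higher and 5 were lower, against 0.249% and 1.74% of all genes. At 7-somite 4 were higher and 8 lower, against 5.91% and 8.81%. In all, 38 of the 63 genes were called at 1 stage or more, a count with no share of all genes worked out beside it. Of the other 25, 23 had a log2 ratio within 0.5 of zero at all 3 stages. The median log2 ratio of the 63 genes was 0.06, 0.03 and -0.02 at shield, tailbud and 7-somite, beside 0.01, -0.01 and -0.02 over all genes. Without moderation of the variances 14 of the 32 shield calls, none of the 6 tailbud calls and 5 of the 12 calls at 7-somite passed the threshold. The 14 included cdh1, celsr1a, celsr2, cldn7b, ctnnb1, fat1a, fat2, fat4, pcdh10b, pcdh18a and pcdh19, and the 5 were pcdh12, pcdh1g32, cldni, cldn15b and ctnnbip1. Whether the pairs of groups stood at the same developmental time within a stage was not tested.

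**Figure D2:**
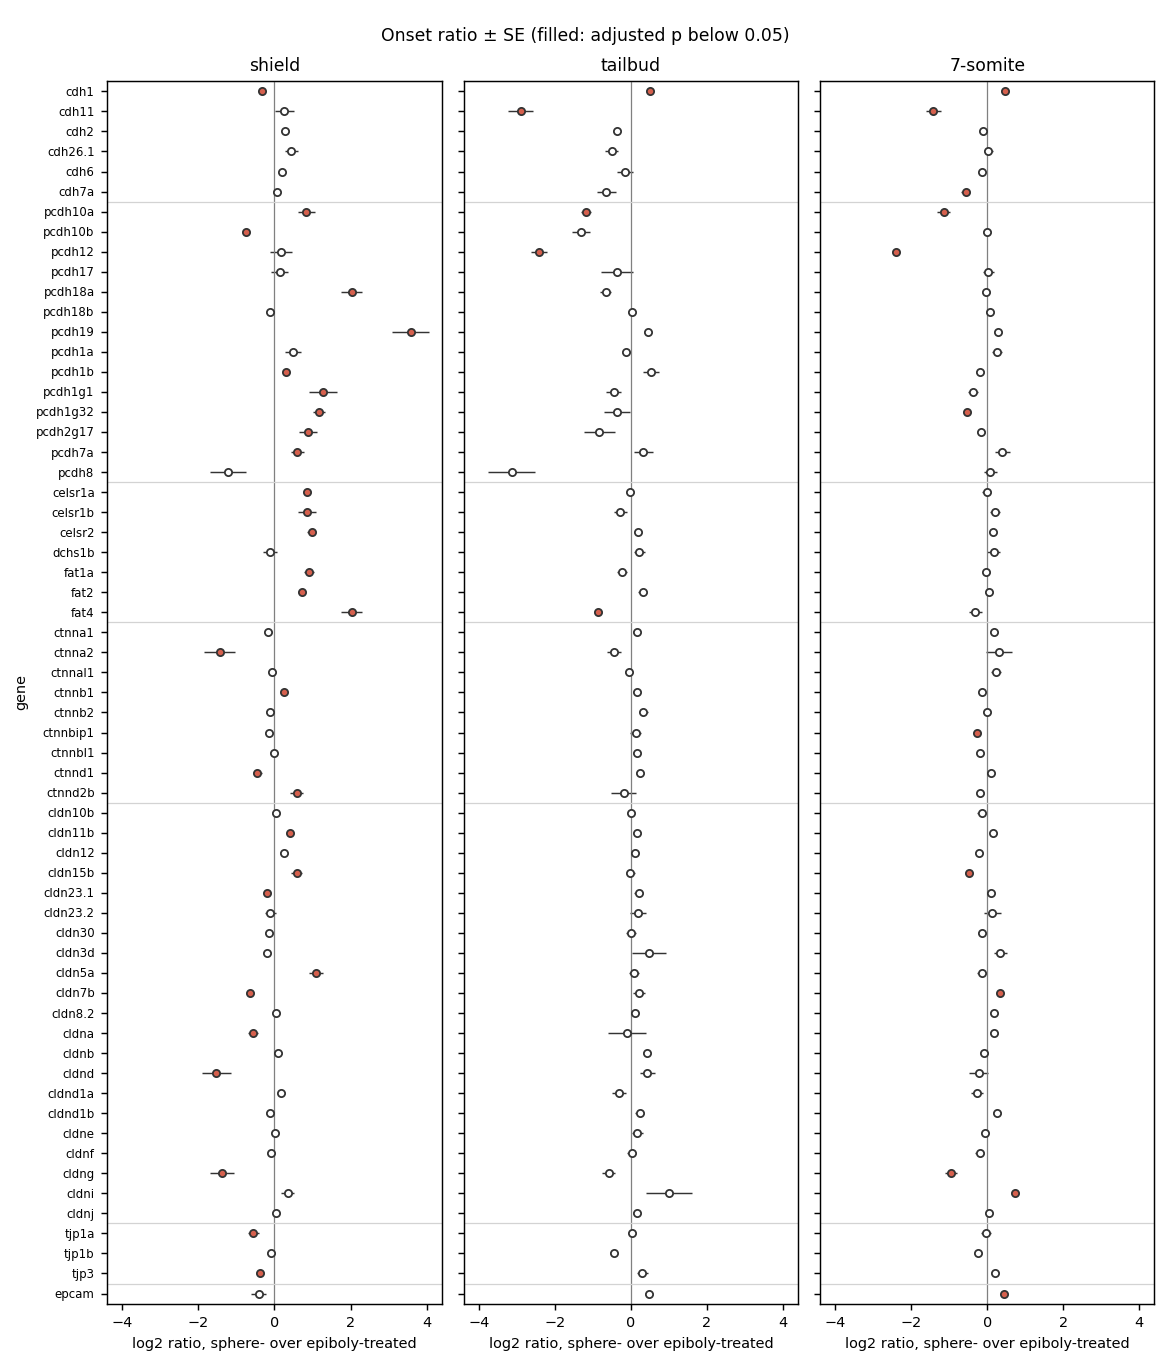
Onset ratio of junction genes at shield, tailbud and 7-somite (panels), as the difference of log2(UQN mean + 5), sphere-treated minus epiboly-treated; points are ratios, bars are the moderated SE and filled points have an adjusted p below 0.05. At shield the filled points reach from -1.53 (cldnd) to 3.58 (pcdh19), and at tailbud cdh1 (0.50) is the filled point to the right of zero.

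Between shield and tailbud most of the 63 genes moved, as most genes of the table did. In epiboly-treated embryos 30 rose, against 32.6% of all genes, and 27 fell, against 48.0%. In sphere-treated embryos 20 rose, against 20%, and 23 fell, against 43.3%. Of these, 20 rose and 23 fell with both onsets. The median of all genes in this step lay at -0.19 log2 in epiboly-treated embryos and -0.23 in sphere-treated ones, and scaling the groups to equal totals raised it by 0.28 and 0.31. With that scaling 27 of the 63 genes rose and 16 fell in sphere-treated embryos, and with trimmed-mean scaling 26 rose and 18 fell. Of all 13274 genes 4486 rose and 3385 fell with equal totals, and 4001 rose and 3860 fell with trimmed-mean scaling. Between tailbud and 7-somite 22 rose and 18 fell in epiboly-treated embryos, against 21.6% and 22.4% of all genes. In sphere-treated embryos 23 rose and 22 fell, against 24.0% and 26.5%. With equal totals, which raised the median of all genes by 0.14, 24 rose and 13 fell. With that scaling 4336 of all 13274 genes rose and 2321 fell. With both onsets, 20 rose and 14 fell in this second step. No share of all genes was worked out for the counts with both onsets.

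The onset ratio of the E-cadherin gene changed sign between shield and tailbud. cdh1 averaged 7232 ± 76.1, 3549 ± 116 and 3192 ± 134 UQN at shield, tailbud and 7-somite in epiboly-treated embryos, and 5797 ± 175, 5013 ± 131 and 4398 ± 249 in sphere-treated embryos. The sphere-treated mean was thus the lower of the pair at shield and the higher at both later stages, and at no stage did the ranges of mean ± SE overlap. The log2 ratio was -0.32 ± 0.06 (SE) at shield (limma adjusted p = 0.017), 0.50 ± 0.09 at tailbud (adjusted p = 0.048) and 0.46 ± 0.10 at 7-somite (adjusted p = 0.032). In percent of the epiboly-treated mean, cdh1 was 41.3% higher at tailbud and 37.8% higher at 7-somite. The tailbud call was lost at a pseudocount of 1 (adjusted p = 0.053) and with equal totals (adjusted p = 0.051). From shield to tailbud cdh1 fell by 1.03 log2 in epiboly-treated embryos (adjusted p = 9.8e-06), while the change of -0.21 in sphere-treated embryos was not called (adjusted p = 0.078).

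N-cadherin moved the other way with stage. cdh2 averaged 4102 ± 64.3, 9766 ± 141 and 11043 ± 318 UQN over the 3 stages in epiboly-treated embryos and 5011 ± 335, 7575 ± 298 and 10285 ± 525 in sphere-treated embryos. It rose from shield to tailbud with both onsets, by 1.25 and 0.60 log2, the latter 0.91 with equal totals. None of its onset ratios was called, at 0.29 (adjusted p = 0.053), -0.37 (adjusted p = 0.12) and -0.10 (adjusted p = 0.46). With a trended robust prior for the variances the shield and tailbud ratios were called (adjusted p = 0.029 and 0.018). With the spread pooled over the 6 groups they were called as well (adjusted p = 0.018 and 0.021). The change of the onset ratio from shield to tailbud was called, at -0.65 for cdh2 and 0.82 for cdh1. The ratio of the cdh2 to the cdh1 mean within a group went from 0.567 ± 0.0107 at shield to 2.75 ± 0.0983 at tailbud and 3.46 ± 0.176 at 7-somite in epiboly-treated embryos. In sphere-treated embryos it went from 0.864 ± 0.0634 to 1.51 ± 0.0713 and 2.34 ± 0.178, a smaller span that began above the epiboly-treated value at shield and lay below it at both later stages, a difference that was not tested. This is a ratio of reads with no correction for length, so its change and not its size can be read.

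epcam, which encodes an adhesion protein of epithelia that supports epiboly in zebrafish, followed cdh1. Its means were 14755 ± 479, 3585 ± 74 and 3951 ± 111 UQN in epiboly-treated embryos and 11055 ± 1730, 4981 ± 258 and 5411 ± 257 in sphere-treated embryos. As with cdh1, the sphere-treated mean was below its partner at shield and above it at tailbud and 7-somite. The shield ratio of -0.42 (adjusted p = 0.13) and the tailbud ratio of 0.47 (adjusted p = 0.079) were not called, and the 7-somite ratio of 0.45 was (adjusted p = 0.025), a level 37.0% higher. The shield ratio was called with the spread pooled over the 6 groups (adjusted p = 0.031). The tailbud ratio was called with a trended robust prior (adjusted p = 0.0083). The ratio changed by 0.89 log2 between shield and tailbud, which was called.

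Levels of many epidermal markers were higher after the earlier start, at shield too, where the cdh1 and epcam means were the lower ones. The summed UQN of 18 measured epidermal markers of a list of 20 was 221925, 326389 and 334178 over the 3 stages in epiboly-treated embryos and 310549, 366785 and 356739 in sphere-treated embryos. Of these 18, 14 were higher in sphere-treated embryos at shield and 5 at each later stage, and none was lower. The 14 measured neural plate markers summed to 52477 and 47862 at shield, 35189 and 35184 at tailbud, and 30017 and 29192 at 7-somite, with sox1b at 0 in both shield groups. Of these 14, 5 were higher and 2 lower in sphere-treated embryos at shield, although the sum was lower. None was called at tailbud, and 3 were lower and none higher at 7-somite. Over the 3 stages 20.5%, 0.249% and 5.91% of all genes were higher, and 19.9%, 1.74% and 8.81% lower. In RNA of whole embryos, fewer cells of a type and less RNA per cell cannot be told apart, and the part of cell composition in the cdh1 and epcam ratios was not tested.

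**Figure D3:**
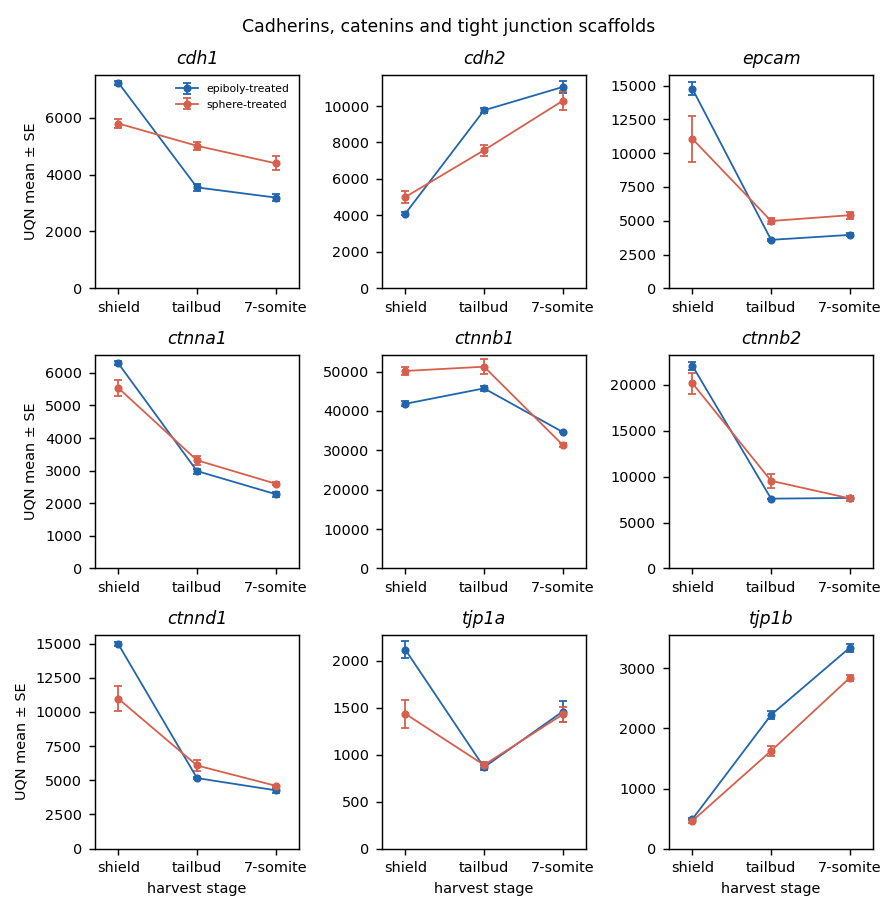
UQN mean ± deposited SE of 9 junction genes at the 3 harvest stages (x axis) in epiboly-treated (blue) and sphere-treated (red) embryos; each panel has its own linear y axis from 0. The lines of cdh1 cross between shield (7232 against 5797) and tailbud (3549 against 5013), those of cdh2 cross the other way, and tjp1b climbs with stage where ctnna1, ctnnb2 and ctnnd1 drop after shield.

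Of the remaining cdh genes, cdh11 showed the largest onset effect. cdh11, a cadherin of mesenchymal cells, averaged 15 ± 2.91, 771 ± 20.9 and 1534 ± 41.4 UQN in epiboly-treated embryos and 19 ± 3.67, 99 ± 30 and 572 ± 97.3 in sphere-treated embryos. Both groups were near the bottom of the range at shield, and the sphere-treated groups stayed far below their partners afterwards. The log2 ratio was -2.90 ± 0.33 at tailbud (adjusted p = 0.0084), a 7.79-fold lower mean, and -1.42 ± 0.20 at 7-somite (adjusted p = 0.012). cdh11 nevertheless rose from shield to tailbud with both onsets, by 5.28 and 2.12 log2, and again to 7-somite.

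The other cdh genes differed less. cdh7a, a type II cadherin, rose over both steps with either onset and reached 657 ± 39.8 and 441 ± 22.9 UQN in epiboly- and sphere-treated 7-somite embryos, where the sphere-treated mean was lower by 0.57 log2 (adjusted p = 0.024). cdh26.1 peaked at tailbud, at 535 ± 10.4 and 375 ± 49.5 UQN, and none of its onset ratios was called. cdh6, known from the pronephros, stayed between 2411 and 2936 UQN and was the 1 gene of the 63 with no call in any onset or stage comparison.

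Protocadherins held the largest called onset ratio of the 63 genes in absolute size at shield and at 7-somite, and cdh11 held it at tailbud. At shield 8 of 14 were higher in sphere-treated embryos and 1 was lower, against 20.5% and 19.9% of all genes, with a median log2 ratio of 0.54. The 8 include the clustered genes pcdh1g1, pcdh1g32 and pcdh2g17, whose values may not be separate. These clustered genes, pcdh18a and pcdh10a lay at 27 UQN or less in epiboly-treated shield embryos. Without moderation of the variances pcdh19, pcdh18a and pcdh1g32 of the 8 were still called, as was the lower gene, pcdh10b. At tailbud none was higher and 2 were lower, with a median of -0.41, and at 7-somite none was higher and 3 were lower, with a median of -0.02. Of all genes 1.74% were lower at tailbud and 8.81% at 7-somite, and 0.249% and 5.91% were higher. Between shield and tailbud 11 of 14 rose in epiboly-treated embryos and 7 in sphere-treated ones, and 2 fell with each onset. In this step 32.6% and 20% of all genes rose, and 48.0% and 43.3% fell.

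pcdh19, which works with N-cadherin in the convergence of the zebrafish neural plate, had the largest shield ratio. Its means were 72 ± 19.2, 5132 ± 182 and 4751 ± 122 UQN in epiboly-treated embryos and 917 ± 311, 6972 ± 274 and 5811 ± 162 in sphere-treated embryos. The sphere-treated shield mean was 12.7-fold higher (log2 ratio 3.58 ± 0.49, adjusted p = 0.013), with an SE of 311 on a mean of 917. At tailbud and 7-somite the sphere-treated means were still the upper ones, by 0.44 and 0.29 log2, but neither ratio was called (adjusted p = 0.093 and 0.051). Both were called with a trended robust prior (adjusted p = 0.015 and 0.0095). pcdh19 rose 71.3-fold from shield to tailbud in epiboly-treated embryos and 7.60-fold in sphere-treated ones.

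pcdh18a showed the same order at shield and no excess later. It averaged 5 ± 0.882, 505 ± 5.24 and 729 ± 14.2 UQN in epiboly-treated embryos and 36 ± 8.95, 317 ± 32.5 and 715 ± 48.8 in sphere-treated embryos. The shield ratio was 2.04 ± 0.28 log2 (adjusted p = 0.013), or 1.16 at a pseudocount of 20, and the tailbud ratio of -0.66 was not called (adjusted p = 0.079). Its neighbour in the genome, pcdh10a, went from 14 ± 2.33 to 58 ± 5.77 and 168 ± 23.4 UQN in epiboly-treated embryos and from 29 ± 4.51 to 23 ± 0.577 and 73 ± 4.91 in sphere-treated embryos. pcdh10a was higher in sphere-treated embryos at shield (0.84, or 0.53 at a pseudocount of 20, adjusted p = 0.028) and lower at tailbud (-1.17, adjusted p = 0.0069) and 7-somite (-1.15, adjusted p = 0.014). pcdh10a reached the 101 UQN of the deposited table in epiboly-treated 7-somite embryos alone, so its 7-somite ratio is not independent of that selection. Its paralog pcdh10b was lower at shield, at 66 ± 2.33 against 114 ± 9.54 UQN (-0.75, adjusted p = 0.013).

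pcdh12, a protocadherin of endothelial cells in mammals, had the lowest 7-somite ratio. It averaged 3 ± 1.2, 43 ± 6.66 and 287 ± 11.5 UQN in epiboly-treated embryos and 4 ± 1.67, 4 ± 0.882 and 50 ± 2.65 in sphere-treated embryos. Neither shield group rose above 4 UQN, and the sphere-treated group was at that level still at tailbud. The log2 ratio was -2.42 ± 0.20 at tailbud (adjusted p = 0.0023), or -1.39 at a pseudocount of 20, and -2.41 ± 0.10 at 7-somite (adjusted p = 3.8e-05), where the sphere-treated mean was 5.74-fold lower. pcdh12 reached the 101 UQN of the deposited table in epiboly-treated 7-somite embryos alone. Its 7-somite ratio thus rests on the group that brought it into the table, and its p-value is not independent of that selection.

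pcdh8, the paraxial protocadherin of early mesoderm, had a wide spread in the sphere-treated groups. It averaged 404 ± 13, 680 ± 66.5 and 1003 ± 31.6 UQN in epiboly-treated embryos and 170 ± 72, 73 ± 41.6 and 1061 ± 143 in sphere-treated embryos. The sphere-treated mean was below its partner at shield and tailbud and level with it at 7-somite. The ratios of -1.22 at shield (adjusted p = 0.085) and -3.13 at tailbud (adjusted p = 0.067) were not called. The tailbud ratio was called at a pseudocount of 20 (adjusted p = 0.030). It was also called with the spread pooled over the 6 groups (adjusted p = 0.0017). The change of the ratio from tailbud to 7-somite, 3.21 log2, was called (adjusted p = 0.045), but not at a pseudocount of 1 (adjusted p = 0.057) or with a trended robust prior (adjusted p = 0.059). The onset ratio of pcdh10b moved the same way after tailbud. Its means went from 343 ± 70.6 at tailbud to 894 ± 47.1 UQN at 7-somite in sphere-treated embryos, beside 857 ± 25.9 and 900 ± 50.3 in epiboly-treated ones. Unlike pcdh8, pcdh10b rose from shield to tailbud in sphere-treated embryos, by 2.29 log2. Its tailbud ratio of -1.31 was not called (adjusted p = 0.057), though it was with a trended robust prior (adjusted p = 0.018). The change of its ratio was 1.30 log2 (adjusted p = 0.046), a call likewise lost at a pseudocount of 1 (adjusted p = 0.052).

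Several mesoderm markers were lower in sphere-treated embryos as well. The 14 measured mesoderm markers, pcdh8 among them, summed to 19921 and 12106 UQN at shield, 14294 and 4379 at tailbud and 16423 and 14926 at 7-somite in epiboly- and sphere-treated embryos. In sphere-treated embryos 3 of the 14 were lower at shield, 9 at tailbud and 3 at 7-somite, and none was higher. Of all genes 19.9%, 1.74% and 8.81% were lower and 20.5%, 0.249% and 5.91% higher, so the shield count of lower markers was near the share of all genes. The part of mesoderm content in the ratios of cdh11, pcdh8, pcdh10a, pcdh10b and pcdh12 was not tested.

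**Figure D4:**
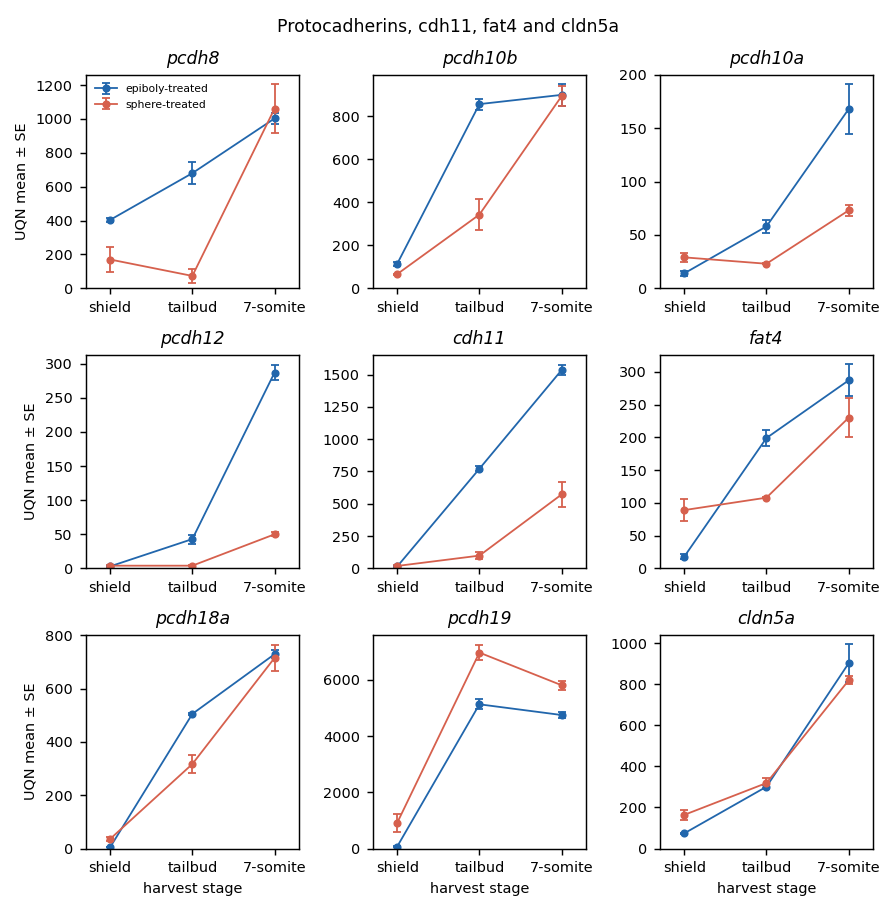
UQN mean ± deposited SE of 6 protocadherins with cdh11, fat4 and cldn5a at the 3 harvest stages (x axis), in epiboly-treated (blue) and sphere-treated (red) embryos, each panel with its own linear y axis from 0. The red lines of cdh11 and pcdh12 lie below the blue ones at tailbud and 7-somite, those of pcdh8 and pcdh10b lie below at tailbud and meet the blue ones at 7-somite, and that of pcdh19 lies above throughout.

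The remaining protocadherins fell into a pair of patterns. pcdh1b, pcdh18b and pcdh7a fell from tailbud to 7-somite with both onsets, pcdh1b from 3564 ± 343 to 1304 ± 47.3 UQN in epiboly-treated and from 5162 ± 724 to 1147 ± 79.5 in sphere-treated embryos. pcdh1b and pcdh7a were also higher in sphere-treated embryos at shield, by 0.31 and 0.60 log2, and neither was called when the spread was pooled over the 6 groups (adjusted p = 0.12 and 0.054). pcdh7a reached the 101 UQN of the deposited table in sphere-treated shield embryos alone, at 116 UQN against 75. Its shield ratio is not independent of that selection. pcdh17 and pcdh1a rose from shield to tailbud with both onsets and had no called onset ratio. The clustered genes pcdh1g1, pcdh1g32 and pcdh2g17 were higher in sphere-treated embryos at shield by 1.28, 1.17 and 0.88 log2, at means of 12, 13 and 54 UQN against 2, 3 and 27. At a pseudocount of 20 the ratios of pcdh1g1 and pcdh1g32 were 0.54 and 0.52, and the former was not called (adjusted p = 0.070). Clustered protocadherins share constant exons, so the separate values of these 3 genes are uncertain.

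The celsr and fat genes were higher in sphere-treated embryos at shield, and dchs1b was not called. These giant cadherins include celsr1a, celsr1b and celsr2, homologs of the fly planar polarity protein Flamingo, and relatives of the fly Fat and Dachsous proteins, which bind each other across cell borders. In sphere-treated shield embryos 6 of 7 were higher and none was lower, against 20.5% and 19.9% of all genes. The median log2 ratio was 0.86 beside 0.01 over all genes. At tailbud none was higher and 1 was lower, against 0.249% and 1.74% of all genes, and at 7-somite none was called in either direction.

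celsr2 averaged 1885 ± 67.3, 4663 ± 61 and 3649 ± 134 UQN over the 3 stages in epiboly-treated embryos and 3718 ± 282, 5327 ± 120 and 4087 ± 17.1 in sphere-treated embryos. The sphere-treated mean was the upper one at each stage, and the ratio was called at shield (0.98 ± 0.11 log2, adjusted p = 0.013). celsr1a averaged 1882 ± 95.7 and 3428 ± 167 UQN at shield and was level between onsets later, at 3689 ± 103 and 3658 ± 61.1 at tailbud and 2202 ± 161 and 2178 ± 144 at 7-somite. celsr1b reached 1120 ± 16.5 and 923 ± 131 UQN at tailbud from 45 ± 5.29 and 85 ± 15.1 at shield.

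fat1a averaged 1030 ± 37.5, 5812 ± 121 and 7589 ± 217 UQN in epiboly-treated embryos and 1938 ± 176, 4956 ± 477 and 7494 ± 226 in sphere-treated embryos. It was higher in sphere-treated embryos at shield (0.91 ± 0.12 log2, adjusted p = 0.013), and its ratio was near zero by 7-somite. fat4 was at 18 ± 3.28, 199 ± 12.7 and 287 ± 24.4 UQN in epiboly-treated embryos and at 89 ± 17, 108 ± 1.2 and 230 ± 29.5 in sphere-treated embryos. It changed sides, with a ratio of 2.03 ± 0.27 log2 at shield (adjusted p = 0.013) and of -0.85 ± 0.10 at tailbud (adjusted p = 0.010). fat2 was higher at shield by 0.72 log2, and dchs1b, at 63 ± 5.03 and 58 ± 8.25 UQN, had no called onset ratio.

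The same genes climbed between shield and tailbud. All 7 rose in epiboly-treated embryos, against 32.6% of all genes, and 5 of 7 in sphere-treated embryos, against 20%. The medians were 1.73 and 0.62 log2, beside -0.19 and -0.23 over all genes. With equal totals and with trimmed-mean scaling 6 of 7 rose in sphere-treated embryos, celsr1a being the gene gained. Of all 13274 genes 4486 and 4001 rose there with these scalings. The shield groups enter both this step and the onset ratio at shield, so the step and the ratio are not independent. From tailbud to 7-somite fat1a and fat4 rose, while celsr1a, celsr2 and dchs1b fell, with both onsets, and with the pooled spread the rise of fat4 in epiboly-treated embryos was not called (adjusted p = 0.064).

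Several catenins, the cytoplasmic partners of cadherin, declined after shield. Of 9 ctnn genes, 6 fell and 1 rose from shield to tailbud in epiboly-treated embryos, where 48.0% of all genes fell, and 5 fell and 1 rose in sphere-treated embryos, where 43.3% of all genes fell. With equal totals 5 fell and 3 rose in epiboly-treated embryos and 5 fell and 2 rose in sphere-treated ones. Of all 13274 genes 4767 fell and 5801 rose with that scaling in epiboly-treated embryos. In sphere-treated ones 3385 fell and 4486 rose. The rule also takes in ctnnbip1, an inhibitor of beta-catenin's binding to TCF, ctnnbl1, a splicing-associated protein, and ctnnal1, an alpha-catenin relative, which share the name and are not core junction proteins. The counts of falls include ctnnbip1 with both onsets and ctnnbl1 in epiboly-treated embryos.

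ctnna1, the alpha-catenin of epithelia, averaged 6288 ± 61.9, 2987 ± 75.5 and 2278 ± 76.9 UQN in epiboly-treated embryos and 5535 ± 242, 3318 ± 136 and 2599 ± 42.5 in sphere-treated embryos. None of its onset ratios was called. With a trended robust prior its shield and 7-somite ratios, -0.18 and 0.19, were called (adjusted p = 0.046 and 0.048). ctnna2, the alpha-catenin of neurons in mammals, was at 217 ± 8.69 and 77 ± 28.4 UQN at shield, lower in sphere-treated embryos (-1.44 ± 0.41 log2, adjusted p = 0.036), and at 10 UQN or less in every later group. ctnna2 reached the 101 UQN of the deposited table in epiboly-treated shield embryos alone, so this ratio is not independent of that selection. ctnnd1, p120-catenin, averaged 14960 ± 143, 5159 ± 45.6 and 4265 ± 162 UQN in epiboly-treated embryos and 10969 ± 906, 6083 ± 428 and 4596 ± 90.9 in sphere-treated embryos. It was lower in sphere-treated embryos at shield (-0.45 ± 0.11 log2, adjusted p = 0.025), like cdh1.

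The pair of beta-catenin genes parted. ctnnb1 averaged 41817 ± 584, 45735 ± 685 and 34656 ± 36.7 UQN in epiboly-treated embryos and 50158 ± 936, 51238 ± 1940 and 31385 ± 561 in sphere-treated embryos. It was higher in sphere-treated embryos at shield (0.26 ± 0.06 log2, adjusted p = 0.020), was not called in the shield to tailbud step, and fell to 7-somite with both onsets. With equal totals ctnnb1 rose from shield to tailbud with both onsets, by 0.42 and 0.34 log2 (adjusted p = 0.00049 and 0.016). With trimmed-mean scaling it rose by 0.34 and 0.27 (adjusted p = 0.0014 and 0.038). ctnnb2, whose maternal product is needed for the zebrafish dorsal axis, averaged 22071 ± 464, 7603 ± 13.5 and 7679 ± 5.55 UQN in epiboly-treated embryos and 20172 ± 1120, 9548 ± 785 and 7631 ± 258 in sphere-treated embryos. It fell from shield to tailbud by 1.54 and 1.08 log2, and none of its onset ratios was called. Its tailbud ratio of 0.33 was called with the spread pooled over the 6 groups (adjusted p = 0.048). ctnnd2b, delta-catenin, rose over both steps, from 37 ± 2.67 to 556 ± 33.5 and 1393 ± 95.4 UQN in epiboly-treated embryos and from 58 ± 7.84 to 486 ± 133 and 1231 ± 27.4 in sphere-treated embryos. ctnnbip1 was lower in sphere-treated embryos at 7-somite, at 1257 ± 9.71 against 1525 ± 5.36 UQN (-0.28 log2, adjusted p = 0.040).

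Many claudins declined after shield. Of 21 claudin genes, 14 fell and 6 rose from shield to tailbud in epiboly-treated embryos, with a median of -0.65 log2 beside -0.19 over all genes, of which 48.0% fell. In sphere-treated embryos 12 fell and 2 rose, with a median of -0.35 beside -0.23 over all genes, of which 43.3% fell. With equal totals 7 claudins fell and 6 rose there, where 3385 and 4486 of all 13274 genes did. At shield 3 were higher and 5 lower in sphere-treated embryos, against 20.5% and 19.9% of all genes. At tailbud none was called, with 15 of 21 ratios above zero. At 7-somite 2 were higher and 2 lower, against 5.91% and 8.81% of all genes.

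cldnd had the lowest shield ratio of all 63 genes. It averaged 554 ± 28.3, 12 ± 0.882 and 9 ± 2.03 UQN in epiboly-treated embryos and 189 ± 63.7, 18 ± 3.33 and 7 ± 2 in sphere-treated embryos. Shield embryos held nearly all of its signal, and it fell 46.2-fold to tailbud in epiboly-treated embryos. The shield ratio was -1.53 ± 0.39 log2 (adjusted p = 0.028).

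cldng was at 289 ± 29.7, 55 ± 5.24 and 43 ± 3.06 UQN in epiboly-treated embryos and at 108 ± 28.9, 35 ± 4.26 and 20 ± 2.85 in sphere-treated embryos. Its sphere-treated mean was the lower one throughout, with calls at shield (-1.38 ± 0.32 log2, adjusted p = 0.023) and 7-somite (-0.94 ± 0.16, adjusted p = 0.018). cldn7b averaged 4140 ± 186, 2101 ± 133 and 2824 ± 81 UQN in epiboly-treated embryos and 2641 ± 177, 2441 ± 294 and 3585 ± 106 in sphere-treated embryos. Like cdh1 it was lower at shield (-0.65 ± 0.11 log2, adjusted p = 0.014) and higher at 7-somite (0.34 ± 0.08, adjusted p = 0.037) in sphere-treated embryos, and the latter call was lost when the spread was pooled over the 6 groups (adjusted p = 0.076).

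cldn5a, a claudin of the brain ventricle lining in zebrafish, went the other way from the claudins that declined. It averaged 74 ± 3.06, 301 ± 8.67 and 902 ± 92.6 UQN in epiboly-treated embryos and 164 ± 24.3, 319 ± 25.6 and 819 ± 20 in sphere-treated embryos. It was higher in sphere-treated embryos at shield (a 2.22-fold higher mean, adjusted p = 0.014) and close between onsets later, with ratios of 0.08 and -0.14 that were not called. cldni was at 6 ± 0.882, 76 ± 8.41 and 1885 ± 6.56 UQN in epiboly-treated embryos and at 9 ± 1.53, 157 ± 86.3 and 3136 ± 208 in sphere-treated embryos. It rose 24.8-fold and 20-fold from tailbud to 7-somite and was higher in sphere-treated embryos at the end (0.73 ± 0.10 log2, adjusted p = 0.011). That last call was lost with the pooled spread (adjusted p = 0.23).

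Claudin genes that lie side by side had different time courses. In the RefSeq table cldnj, cldne, cldnf and cldna are direct neighbours. cldne, known from the enveloping layer, averaged 10421 ± 38, 4194 ± 266 and 2914 ± 102 UQN in epiboly-treated embryos and 10492 ± 188, 4735 ± 471 and 2779 ± 23.1 in sphere-treated embryos, and cldnf fell with it from shield to tailbud with both onsets. cldnj fell by 0.37 and 0.25 log2 in that step, a call lost with equal totals and with trimmed-mean scaling, and its change in sphere-treated embryos was 0.06 with equal totals. cldna was at 156 ± 3.18, 105 ± 15 and 747 ± 23.6 UQN in epiboly-treated embryos and at 104 ± 10.1, 98 ± 42.8 and 851 ± 53.3 in sphere-treated embryos, and rose from tailbud to 7-somite by 2.77 and 3.05 log2 while cldne fell by 0.52 and 0.77. A second neighbourhood holds cldn3d, cldnb, cldnd and cldn30, with at most 1 protein-coding gene between neighbours. All 4 fell from shield to tailbud with both onsets, although the falls of cldnb and cldn30 in sphere-treated embryos, 0.53 and 0.52 log2, were lost with equal totals (adjusted p = 0.18 and 0.22). cldn30 fell on to 7-somite with both, and cldnb rose from 790 ± 33.5 to 1322 ± 32.9 UQN in epiboly-treated embryos (0.74 log2, adjusted p = 0.00082). Reads of near-identical claudin copies could be counted for either copy, which makes the values of such copies uncertain.

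**Figure D5:**
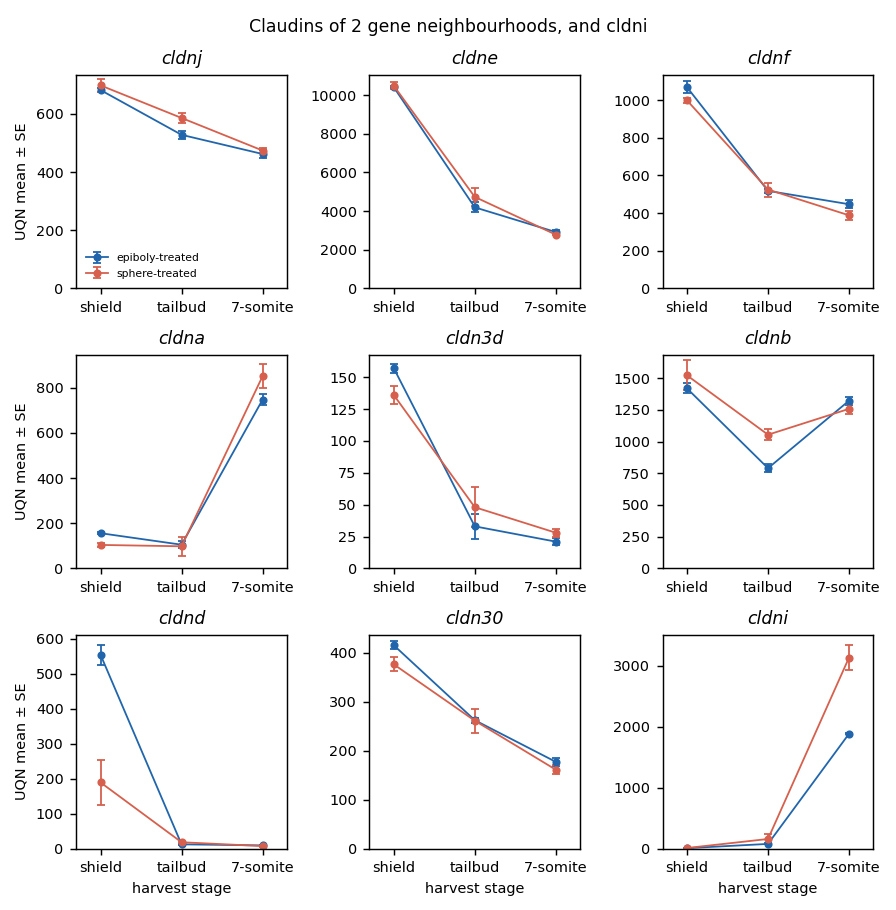
UQN mean ± deposited SE of 9 claudin genes at the 3 harvest stages (x axis) in epiboly-treated (blue) and sphere-treated (red) embryos, each panel with its own linear y axis from 0. cldne and cldnf decline from shield while their neighbour cldna climbs to 747 and 851 at 7-somite, cldnd drops from 554 and 189 to 12 and 18 at tailbud, and cldni climbs to 1885 and 3136.

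The summed level of enveloping layer and periderm markers climbed with stage while cldne fell, and single markers went both ways. The 18 measured of a list of 19, 5 of which are also on the epidermal list, summed to 196729, 296733 and 336973 UQN over the 3 stages in epiboly-treated embryos and 267576, 316966 and 364823 in sphere-treated embryos. At shield 13 of the 18 were higher and 2 lower in sphere-treated embryos, at tailbud none was called, and at 7-somite 1 was higher. Of all genes 20.5% were higher and 19.9% lower at shield, and 5.91% were higher at 7-somite. The part of the enveloping layer and periderm markers in the claudin values was not tested.

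The tjp1 scaffold genes split by paralog. tjp1a averaged 2119 ± 91.7, 867 ± 26.8 and 1461 ± 113 UQN in epiboly-treated embryos and 1436 ± 149, 891 ± 35.3 and 1430 ± 79.1 in sphere-treated embryos, a dip at tailbud with both onsets. tjp1b climbed instead, from 492 ± 15.7 to 2226 ± 63.6 and 3345 ± 67 UQN in epiboly-treated embryos and from 462 ± 29.8 to 1627 ± 82.8 and 2843 ± 47.2 in sphere-treated embryos. From shield to tailbud tjp1a fell by 1.28 and 0.69 log2, the latter not called with equal totals (adjusted p = 0.065), and tjp1b rose by 2.17 and 1.81. tjp1a was lower in sphere-treated embryos at shield (-0.56 ± 0.14 log2, adjusted p = 0.027), and no onset ratio of tjp1b was called. At tailbud the tjp1b ratio of -0.45 was called with a trended robust prior and the pooled spread (adjusted p = 0.019 and 0.0047). The 7-somite ratio of -0.23 was called with that prior too (adjusted p = 0.025).

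tjp3, a ZO protein of the skin barrier in zebrafish, averaged 4300 ± 38.1, 785 ± 43.9 and 661 ± 25.8 UQN in epiboly-treated embryos and 3310 ± 242, 970 ± 101 and 757 ± 48.2 in sphere-treated embryos. It fell 5.48-fold from shield to tailbud in epiboly-treated embryos and was lower in sphere-treated embryos at shield (-0.38 ± 0.10 log2, adjusted p = 0.030).

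Of the other paralog pairs, some had opposite courses and some moved together. From shield to tailbud pcdh18a rose by 5.67 log2 in epiboly-treated embryos and 2.97 in sphere-treated ones, while pcdh18b, at 2109 ± 39.7 and 1948 ± 22.6 UQN at shield, fell by 0.75 and 0.61. pcdh1a rose by 3.05 and 2.44 log2, while the mean of pcdh1b fell by 50.1% and 41.6%, the latter not called with equal totals (adjusted p = 0.066). In contrast cldn23.1 and cldn23.2, which are neighbours, both fell, by 1.89 and 1.55 log2 in epiboly-treated embryos.

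The onset ratio itself shifted between shield and tailbud for 24 genes. For 8 of the 63 it moved up, against 8.02% of all genes, and for 16 it moved down, against 12.0%. The 8 were cdh1, epcam, ctnnd1, cldnd, cldn7b, cldn23.1, tjp1a and tjp3. The 16 included 7 protocadherins, 5 celsr and fat genes, 3 cdh genes and cldn5a. The largest moves down were those of cdh11 (-3.16 log2), pcdh19 (-3.14) and fat4 (-2.88), and the largest up that of cldnd (1.96). Between tailbud and 7-somite the ratio moved up for 2 genes, pcdh8 and pcdh10b, against 1.31% of all genes, and down for none, against 0.716%.

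Tight junction and polarity genes outside the set were more often lower than higher at shield. Among 28 measured tight junction and polarity genes of a list of 37, 2 were higher and 16 lower in sphere-treated shield embryos, with a median log2 ratio of -0.35. For these and the lists that follow, the shares of all genes at shield are 20.5% higher and 19.9% lower. At tailbud the shares are 0.249% and 1.74%, and at 7-somite 5.91% and 8.81%. The 2 called genes with the largest ratios were crb2a, an apical polarity gene, at 24 ± 6.94 against 113 ± 8.67 UQN, and dlg1a, a basolateral scaffold, at 86 ± 14.8 against 208 ± 19.5 UQN. At tailbud none of the 28 was higher and 1 was lower, and at 7-somite 5 were higher, patj and marveld3 among them, and 1 lower.

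Among desmosome genes more were higher than lower at shield. Of 13 measured of 14, 7 were higher and 1 lower in sphere-treated shield embryos, led by evplb, an envoplakin, at 4600 ± 520 against 1978 ± 188 UQN, with pkp3b, a plakophilin, lower at 54 ± 12.3 against 115 ± 9.87. At 7-somite 3 were higher, with the desmoplakin gene dspa at 9126 ± 697 against 6565 ± 394 UQN. Of 14 nectin, afadin and adherens partner genes, 5 were higher and 4 lower at shield, 1 was lower at tailbud and none was called at 7-somite. The vinculin gene vcla was at 110 ± 37.9 against 337 ± 9.68 UQN at shield.

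Planar polarity and gap junction genes were mixed. Of 21 planar polarity and neural tube bending genes, 6 were higher and 2 lower at shield, with fzd3a at 671 ± 27.5 against 364 ± 22.7 UQN and shroom4 at 205 ± 21.3 against 421 ± 19.6. Of 7 measured gap junction genes 1 was higher and 1 lower at shield and none was called later. Among 14 epithelial and mesenchymal transcription factors, 2 were higher and 5 lower at shield, 2 were lower at tailbud, and 4 were higher and 2 lower at 7-somite. twist1a, a factor of mesenchymal cells, was at 10 ± 2.33 UQN in sphere-treated and 534 ± 58.5 in epiboly-treated tailbud embryos, while zeb1b was higher at shield, at 260 ± 41 against 115 ± 2.96 UQN. The E-cadherin repressor snai1b was at 127 ± 7.31 UQN in sphere-treated and 525 ± 50.5 in epiboly-treated tailbud embryos, the stage at which cdh1 was higher in sphere-treated embryos. The repressor zeb2b was higher at 7-somite, at 488 ± 74.6 against 219 ± 29.6 UQN, where cdh1 was also higher. The part of these factors in the cdh1 ratios was not tested.

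Notochord markers were lower in sphere-treated embryos at each stage. The 9 measured summed to 13325 and 8193 UQN at shield, 10635 and 7122 at tailbud and 11259 and 6321 at 7-somite, with 5, 4 and 7 of 9 lower and 1, 0 and 0 higher. Sums of endoderm markers were 11162 and 7645 UQN, 5591 and 4774, and 2750 and 2443 in epiboly- and sphere-treated embryos over the 3 stages. Hatching gland markers summed to between 5087 and 9426 UQN, with he1.1 and he1.2 at 0 in both shield groups, neural crest markers to between 7903 and 11103, and yolk syncytial layer markers to between 13414 and 63044. In sphere-treated embryos 4, 2 and 2 of 8 endoderm markers were lower over the 3 stages, and none was higher. For hatching gland 3, 4 and 4 of 8 were lower and none higher. For neural crest 4, 2 and 5 of 9 were lower and 2, 0 and 1 higher. Of 10 yolk syncytial layer markers 5 were higher and 3 lower at shield, and none was called later. The part of all these markers in the junction gene ratios was not tested. Several lists share genes, so their counts are not independent. ppl and evpla are on the desmosome and the enveloping layer lists, and tbxta is on the mesoderm and notochord lists. Of the transcription factors, grhl1 and grhl3 are also on the enveloping layer list, and twist1a, snai1b and snai2 on the neural crest list.

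By stage of highest mean, the 63 genes divided as follows. In epiboly-treated embryos 44.4% peaked at shield, 17.5% at tailbud and 38.1% at 7-somite, beside 52.9%, 15.3% and 31.9% of all genes. In sphere-treated embryos the shares were 46.0%, 17.5% and 36.5%, beside 55.0%, 10.4% and 34.6%. With each onset 7 of 9 ctnn genes and 13 of 21 claudins peaked at shield, and 10 of 14 protocadherins peaked at 7-somite, while none of the 7 celsr, dchs and fat genes peaked at shield.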

How the data were processed

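The authors deposited upper-quartile normalized group means and their standard errors, which are whole-number normalized scores and not raw counts, per the file headers. The deposited ratio per stage was epiboly-treated over sphere-treated, with 1 added to each, for 13321 of 13321 records (tolerance 0.002). The table also holds the authors' calls, which were not used. The submitters' processing notes name DESeq 1.6.1 without saying what it did. The aligner, the counting tool and the build were not given in the sources used here. Per the labels' protocols, libraries were made from total RNA with an Illumina TruSeq kit. Depth is unknown.

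The labels list 1 sample per group. The standard errors between 0 and 5, 12057 of 12057, take values that 3 whole numbers can produce, and 3 values per mean were assumed. Whether they came from separate clutches is unknown, and p-values measure their spread alone, which may be technical. Symbols and gene neighbours were taken from RefSeq (assembly GRCz12tu): 12182 records matched by gene identifier, 42 by accession and 1097 not. Of 64 junction records 1, a second pcdh1b record, was set aside.

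Ratios are of log2(mean + 5), which makes changes of low genes look smaller. Variances came from the deposited standard errors by the delta method and were moderated over 13274 genes with limma 3.58.1 (squeezeVar; each gene brought 4 degrees of freedom, or 8 for differences of ratios). Two-sided p-values were adjusted by Benjamini-Hochberg with a threshold of 0.05. The test was checked on simulated data. The genes, lists and tests were chosen with earlier results of these data known. Genes named in full are 9 landmark genes, the 5 highest and 5 lowest called onset ratios per stage, the 4 largest rises and 4 largest falls per stage step called with both onsets, and the 3 highest and 3 lowest called changes of ratio; the other genes were named after their values were seen. Some genes that the rules select are not reported here by name, though they stay in the counts.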

Additional observations from a re-analysis of the deposited data

Results flagged for a closer look

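The onset ratio, log2 of sphere-treated over epiboly-treated, changed from shield to tailbud by the limma-moderated test of the difference itself for 24 junction genes. It moved up for cldnd (1.96), epcam (0.89), cldn7b (0.86), cdh1 (0.82), ctnnd1 (0.68), tjp3 (0.68), tjp1a (0.60) and cldn23.1 (0.41). It moved down for cdh11 (-3.16), pcdh19 (-3.14), fat4 (-2.88), pcdh18a (-2.70), pcdh12 (-2.58), pcdh10a (-2.01), pcdh1g1 (-1.73), pcdh2g17 (-1.71) and pcdh1g32 (-1.52, a call lost at a pseudocount of 20). Smaller moves down were those of fat1a (-1.14), celsr1b (-1.13), cldn5a (-1.01), cdh26.1 (-0.95), celsr1a (-0.88), celsr2 (-0.79) and cdh2 (-0.65). From tailbud to 7-somite it moved up for pcdh8 (3.21) and pcdh10b (1.30).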

How the results depend on the processing

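Without moderation the onset count went from 32 to 14 at shield, from 6 to 0 at tailbud and from 12 to 6 at 7-somite, and the count of ratios that changed from tailbud to 7-somite went from 2 to 0; at an unadjusted p below 0.05 those counts of 0 were 19 and 16. The tailbud onset count was 13 with a trended robust prior and 14 with a spread pooled over the 6 groups, and the count of changed ratios from tailbud to 7-somite was 0 at a pseudocount of 1. A rule of at least 2-fold with no test gave 7 onset differences at shield and 3 at 7-somite, 27 shield to tailbud steps in sphere-treated embryos where the test called 43, and 13 and 19 tailbud to 7-somite steps in epiboly- and sphere-treated embryos where it called 40 and 45. For pcdh12 the change of ratio from tailbud to 7-somite, 0.01, became -0.74 at a pseudocount of 20, where its low means weigh less. Of the alternatives tried for genes named by the rule in the methods, 2449 kept their side of the threshold, 64 lost a call and 69 gained one. Another 1 turned sign with a call in at least 1 of the fits compared. The 2449 include values that changed sign where neither fit gave a call. Outside the genes named by the rule, cldnj turned sign as described. No paired analysis was possible because the labels list 1 sample per group with no replicate numbers, and leaving out replicates could not be done because the analysis had means and standard errors to work with, not single values. Low means limit pcdh12, pcdh10a and the clustered protocadherins most, since both shield means of pcdh12 lie under the pseudocount of 5. pcdh12, pcdh10a, ctnna2 and pcdh7a each reached the 101 UQN of the deposited table in a lone group. Their onset calls at the stage of that group stay in the counts and are not independent of how the table was cut.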
